A study of Mus musculus with 12 samples.

Results

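The collagen genes were taken as every gene whose symbol has the form of Col, a number, the letter a and a number. There were 44 of them among 28342 genes listed for the cochlea and the same 44 among 24726 genes listed for the vestibule. Levels were given in CPM, the reads of a gene scaled to the total of its library. In the cochlea 42 collagen genes had at least 1 CPM in at least 3 of 6 libraries and were tested, of 17985 genes tested in all. In the vestibule 39 of the 44 passed, of 15595. Col6a4 and Col6a5 passed in neither organ: Col6a5 was at 0.127 CPM or less in every library, and Col6a4 exceeded 1 CPM in 1 cochlear library only. Col4a3, Col17a1 and Col19a1 missed the filter in the vestibule, where their highest libraries had 1.26, 0.792 and 0.614 CPM. Of the vestibular members just inside the filter, Col28a1 was at 1.34, 1.80 and 1.87 CPM in heterozygotes against 0.211, 0.849 and 0.942 CPM in mutants, so that it passed through the heterozygotes. Col10a1 also had exactly 3 vestibular libraries at 1 CPM or more, at 6.43, 0.797 and 0.783 CPM in heterozygotes and 0.317, 1.19 and 1.80 CPM in mutants, with 1 heterozygous library far above the rest. By type, 11 genes encode fibrillar collagens, 8 encode basement membrane collagens (type IV, with Col15a1 and Col18a1) and 25 encode other collagens.

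The libraries hold RNA pulled down with HA-tagged ribosomes from newborn mice, at postnatal day 0 to 1. RiboTag is an allele of a ribosomal protein gene that gains an HA tag in cells with Cre recombinase, and here all animals were RiboTagHA/HA and carried Cre in the Gfi1 locus, which encodes a zinc finger repressor needed by hair cells. Heterozygotes were Gfi1Cre/+ and mutants Gfi1Cre/Cre, so that the mutants differed both in Gfi1 and in the number of Cre copies. Each genotype had 3 libraries from the cochlea and 3 from the vestibule, described as independent biological triplicates. The labels call the RNA enriched for hair cells or for vestibular cells, not pure, and Cre from this locus reaches only cells in which the locus is or was active. Cochlear libraries were made with a NuGEN Ovation Ultralow kit and vestibular ones with a NEBNext Ultra Directional kit, so organ and kit cannot be told apart and levels were not compared between organs. In pulled-down RNA, fewer cells of a type, less RNA per cell and less carry-over of untagged RNA cannot be told apart.

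Collagens are extracellular proteins of 3 chains wound into a triple helix. Fibrillar collagens assemble into the ropes of bone, skin and cartilage, type IV collagens form the sheet-like network of basement membranes, and smaller families decorate fibrils, span the cell membrane or anchor epithelium to connective tissue. In the inner ear, collagen II with collagens IX and XI builds the otic cartilage and the fibrils of the tectorial membrane, which lies over the cochlear hair cells. Mesenchyme, cartilage, pericytes and Schwann cells are some of the usual large producers, not all of them, and hair cells are not counted among them. Chains of 1 trimer are often encoded by neighbouring genes. Col4a1 and Col4a2 lie head to head on chromosome 8 and their annotated 5′ ends overlap by 22 bases. Col4a3 and Col4a4 lie head to head on chromosome 1 with 71 bases between them, and Col4a5 and Col4a6 on chromosome X with 1308 bases between them.

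Sequence is shown for the shared start of the Col4a1 and Col4a2 pair, for Col3a1, the collagen gene with the smallest p among those that fell in the vestibule, and for Col18a1, the single one that rose there. The first is the overlap at chr8:11312805-11312826, and the others are the 250 bases before an annotated RefSeq start, on GRCm38.p6. Capitals mark AATC or GATT, the core of the motif that GFI1 is known to bind, searched on both strands. The Col3a1 window is chr1:45311288-45311537 on the plus strand, and the Col18a1 windows are chr10:77166531-77166780 and chr10:77113706-77113955 on the minus strand, all written 5′ to 3′.
Col4a1 and Col4a2 overlap, plus strand: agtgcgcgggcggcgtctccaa
Col3a1: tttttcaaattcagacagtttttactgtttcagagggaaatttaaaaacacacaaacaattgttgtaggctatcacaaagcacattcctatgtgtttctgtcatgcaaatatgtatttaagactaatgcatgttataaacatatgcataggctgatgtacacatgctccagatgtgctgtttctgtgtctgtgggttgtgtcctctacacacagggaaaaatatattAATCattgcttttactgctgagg
Col18a1, upstream start: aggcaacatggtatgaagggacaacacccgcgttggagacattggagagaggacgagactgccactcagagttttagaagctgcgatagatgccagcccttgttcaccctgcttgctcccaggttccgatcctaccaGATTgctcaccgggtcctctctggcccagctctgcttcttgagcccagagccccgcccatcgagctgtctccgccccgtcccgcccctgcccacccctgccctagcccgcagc
Col18a1, downstream start: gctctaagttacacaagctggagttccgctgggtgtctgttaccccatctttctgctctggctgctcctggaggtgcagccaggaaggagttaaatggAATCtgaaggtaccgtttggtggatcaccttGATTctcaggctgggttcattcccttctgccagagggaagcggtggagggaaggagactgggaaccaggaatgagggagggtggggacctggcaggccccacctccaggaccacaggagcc
The core occurred once in the Col3a1 window, once before the upstream start of Col18a1 and 2 times before its downstream start. In Col6a2, which was also called lower in the vestibule and is not shown, both windows held 0 matches. The Col18a1 starts lie 52825 bases apart, and a CPM value per gene does not separate transcripts from either. RefSeq windows were matched for 35 of the 44 collagen genes, 38 windows in all. AATC or GATT was in 27 of these 38 windows (71.1%) and in 69.0% of all 32851 windows of the same length. CCAAT or its reverse complement ATTGG was in 34.2% of the collagen windows and 33.8% of all, and TATAAA or TTTATA in 13.2% and 12.4%. The GC box, GGGCGG or CCGCCC, was in 57.9% of the collagen windows and in 32.7% of all windows. A match describes the letters and is no evidence of binding.

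Cochlear libraries held 7531518 to 9363796 reads in total and vestibular ones 18951026 to 29370267, which set the value of a single read at 0.107 to 0.133 CPM and 0.0340 to 0.0528 CPM. Gfi1 was at 106 to 165 CPM in cochlear heterozygotes and 64.3 to 75.1 in mutants, and at 450 to 534 and 198 to 236 CPM in the vestibule, with adjusted p = 0.00355 and 0.00234 by limma. The replicate 1 libraries of both vestibular genotypes stood apart from replicates 2 and 3 on the first principal component (scores of 29.2 and 51.7 against -36.0 to -4.96), and both cochlear replicate 3 libraries on the second (-33.4 and -24.6 against 9.62 to 19.5). Results are therefore also given without them. All 12 hair cell markers passed the filter in both organs, and their sum was 4757 to 5469 CPM in cochlear heterozygotes and 9951 to 11057 CPM in vestibular ones. Macrophage markers were also high, at 2271 to 2859 and 7407 to 9264 CPM. Mesenchymal markers summed to 697 to 718 CPM and 344 to 604 CPM in heterozygotes, and skeletal muscle markers to 6.70 CPM or less in every library.

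Collagen transcripts were abundant in the heterozygous pull-downs of both organs. Their sum was 4502 to 6216 CPM for cochlear heterozygotes and 7749 to 9894 CPM for vestibular ones. Scaled per kilobase of exon, the highest level in the cochlea was that of Col2a1, the chain of cartilage collagen II, at 159 ± 36.3 CPM per kb (SD, n = 3). It was followed by Col9a3 at 116 ± 54.4, Col9a1 at 55.5 ± 9.80, Col11a1 at 47.4 ± 1.91 and Col11a2 at 41.4 ± 12.2 CPM per kb. In the vestibule Col2a1 again came first, at 258 ± 48.8 CPM per kb, before Col11a2 at 168 ± 70.0, Col9a2 at 148 ± 39.0 and Col9a3 at 121 ± 55.0. These chains belong to the cartilage and tectorial membrane fibrils. Col1a2, a chain of collagen I, came next in the vestibule at 98.7 ± 16.5 CPM per kb. In both organs each gene of this order overlapped the next within 1 SD. Its partner Col1a1 was lower per kilobase in every library. The ratio of Col1a2 to Col1a1 per kb ranged over all libraries from 4.19 to 10.9 for cochlear RNA and from 3.19 to 5.37 for vestibular RNA, although the usual collagen I trimer holds more of the Col1a1 chain.

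In the cochlea, the question was whether tagged ribosomes held different amounts of collagen RNA in Gfi1 mutants and heterozygotes. No collagen gene was called there. Of the 42 tested, 0 had an adjusted p under 0.05 by limma on log2(CPM + 1), where 4.41% of all tested genes did, and 2 had an unadjusted p under 0.05, where 12.1% of all genes did. With the replicate numbers as a block the count was again 0, against 8.52% of all genes, and the same was true of edgeR (4.52% of all genes) and DESeq2 (5.31%) on the recovered reads and of limma without both replicate 3 libraries (3.94%). Log2 fold changes, mutant minus heterozygote throughout, had a median of -0.02 over the collagen genes and 0.05 over all genes tested. They ranged from -0.62 to 0.62 in the collagen genes. Of the 42 collagen genes 24 lay below 0 and 18 above, whereas 40.8% of all genes lay below 0. The 24 became 28 with edgeR, DESeq2 and median-of-ratios scaling, and 14 without heterozygote replicate 3. The median was -0.02 for the 11 fibrillar genes, -0.07 for the 8 basement membrane genes and -0.02 for the 23 other genes.

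Summed collagen CPM overlapped between the cochlear genotypes, at 4502 to 6216 in heterozygotes and 4452 to 5622 in mutants. Among fibrillar members, Col2a1 was at 1728, 1091 and 1592 CPM in heterozygotes against 1551, 1050 and 1295 CPM in mutants (log2 fold change -0.17, SE 0.20, adjusted p = 0.871). Col3a1, the chain of collagen III found with collagen I in soft tissue, was at 254, 180 and 259 CPM against 249, 180 and 254 CPM (-0.02, SE 0.17, adjusted p = 0.989). In Col3a1 the 3 mutant values sat almost on the heterozygous ones of the same number, with replicate 2 low in both genotypes. Col24a1, a minor fibrillar chain, had the smallest p of the type, at 32.0, 23.2 and 46.2 CPM against 35.7, 29.7 and 58.4 CPM (0.27, SE 0.26, adjusted p = 0.821). Every Col24a1 mutant library was above the heterozygous one of its number, but the groups overlapped.

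Among basement membrane genes of the cochlea, Col4a2 was at 78.4, 67.7 and 72.9 CPM in heterozygotes against 76.4, 89.4 and 68.6 CPM in mutants (0.09, SE 0.14, adjusted p = 0.920). Col18a1, whose product carries the endostatin fragment, was at 27.8, 44.5 and 50.6 CPM against 34.0, 38.5 and 42.4 CPM (-0.06, SE 0.20, adjusted p = 0.976). Both genes overlapped between genotypes. Col15a1, the other multiplexin, had the smallest p of its type, with 11.2, 11.6 and 18.7 CPM against 8.87, 9.55 and 14.0 CPM (-0.31, SE 0.25, adjusted p = 0.753). It was lower in all 3 same-numbered pairs, again with overlapping groups.

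Col7a1 and Col6a6 had the smallest p of all collagen genes in the cochlea. Col7a1, which forms the fibrils that anchor basement membranes, was at 9.15, 11.3 and 11.1 CPM in heterozygotes against 5.25, 6.58 and 7.76 CPM in mutants (-0.62, SE 0.23, adjusted p = 0.206, and 0.0662 with the block). Its 3 mutant libraries all lay below the heterozygous ones, the only such collagen gene in the cochlea, where 7.77% of all genes showed this; none had all mutant libraries above, against 9.74%. Col6a6, a chain of the beaded filaments, averaged 4.42 ± 1.68 CPM in heterozygotes against 7.17 ± 1.57 CPM in mutants (0.62, SE 0.28, adjusted p = 0.382, and 0.144 with the block). The remaining named members did not separate the genotypes. Col6a2 was at 16.6, 16.9 and 17.3 against 17.1, 19.0 and 19.9 CPM, and Col9a2 at 74.4, 69.8 and 122 against 74.2, 79.6 and 118 CPM. Col9a3 was at 308, 342 and 687 CPM against 401, 339 and 560 CPM, with replicate 3 the highest in both genotypes. The Col9a3 model shares 6.07% of its exon bases with Tcfl5, and the rule by which shared bases were counted was not stated in any source used here.

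**Figure D1:**
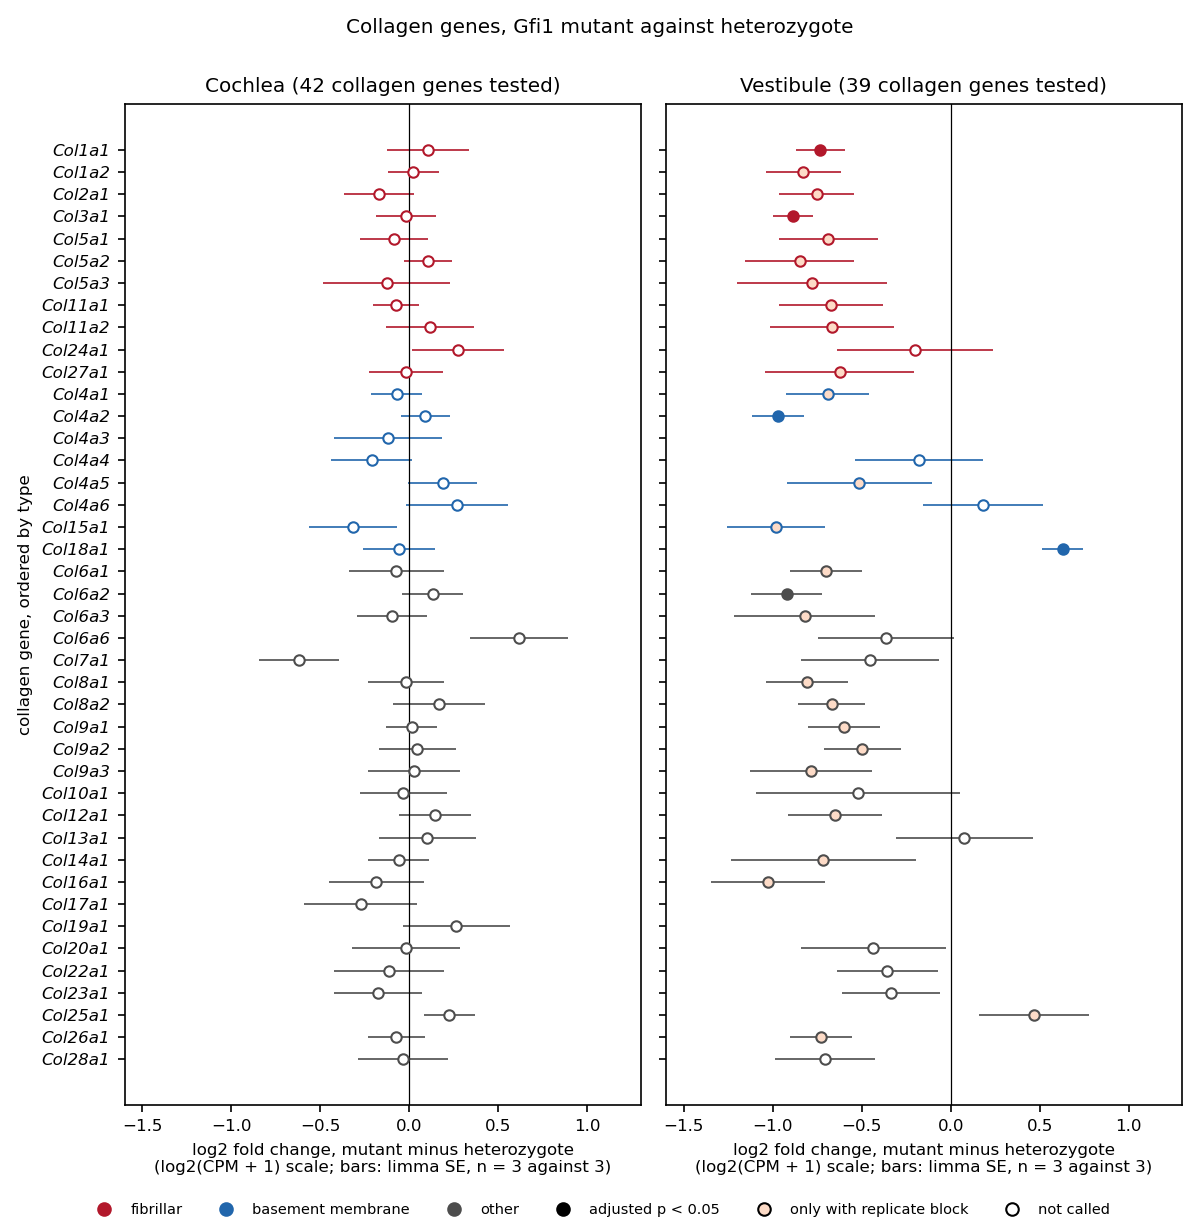
Log2 fold change of each tested collagen gene (x axis, mutant minus heterozygote, from log2(CPM + 1), bars are limma SE, 3 libraries against 3) in the cochlea and the vestibule, with genes on the y axis by type. Cochlear points lie around 0 and none is called, whereas 35 of 39 vestibular points lie below 0, with 5 filled points called without the block and paler ones called only with it.

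In the vestibule most collagen genes had lower values in the mutants, and few of them passed the test. Of 39 tested, 4 fell and 1 rose at an adjusted p under 0.05, where 1.09% of all tested genes fell and 2.41% rose (3.50% in either direction). The 4 were Col3a1, Col1a1, Col4a2 and Col6a2, and the one that rose was Col18a1. The median log2 fold change was -0.67, and -0.66 over all 44 genes with or without the filter passed, against -0.06 over all genes tested. An unadjusted p under 0.05 was found for 22 of 39 collagen genes and 16.1% of all genes. A negative value was found for 35 of 39 collagen genes and for 58.5% of all genes. In 13 collagen genes all 3 mutant libraries lay below all 3 heterozygous ones, where 11.6% of all genes did, and in 1 all lay above, where 10.7% did. Col28a1, which passed the filter through its heterozygotes, is among these 13 and among the 22 and the 35. The filter itself favoured lower mutant values in Col28a1, so its part in these counts is no support for a fall. Summed collagen CPM was 7749, 8441 and 9894 in heterozygotes against 4839, 5242 and 6076 in mutants, so that every mutant library lay below every heterozygous one.

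The number of calls depended on how the replicates were treated. Same-numbered vestibular libraries varied together, and with the number as a block 28 of 39 collagen genes passed, 26 lower and 2 higher, where 23.3% of all genes passed, 12.8% lower and 10.5% higher. Within all 3 same-numbered pairs 30 collagen genes were lower in the mutant, where 31.8% of all genes were, and 2 were higher, Col18a1 and Col25a1, where 21.8% were. The 30 also include Col28a1, which the filter admitted through its heterozygotes. Without both replicate 1 libraries 14 collagen genes were called, 13 of them lower, against 5.53% of all genes in either direction and 2.12% lower. DESeq2 called 13, against 7.91% of all genes, and edgeR 3, against 3.36%. Leaving out 1 library at a time gave between 1 and 7 calls, the fewest without heterozygote replicate 2.

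**Figure D2:**
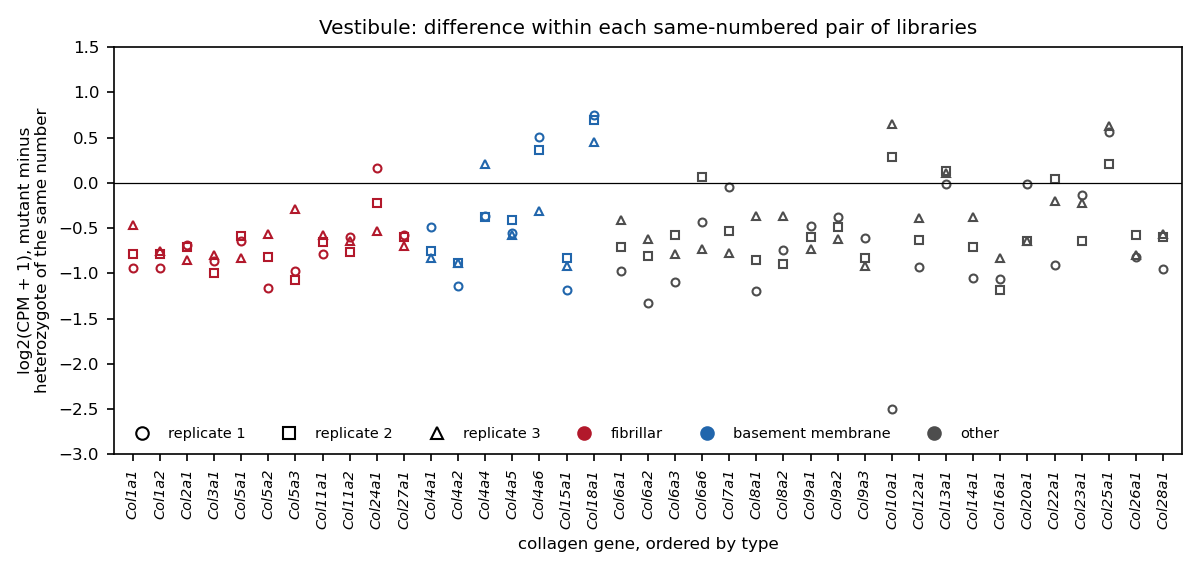
Difference in log2(CPM + 1) between the mutant and heterozygous vestibular library of the same replicate number (y axis) for each of the 39 tested collagen genes (x axis, by type); symbols mark the replicate number. In 30 genes all 3 points are below 0, and in Col18a1 and Col25a1 all 3 are above.

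The 11 fibrillar genes all had negative vestibular log2 fold changes, with a median of -0.73 and a range of -0.89 to -0.20. Of them 2 fell without the block, where 1.09% of all genes did. With the block 10 fell, where 12.8% of all genes did, Col24a1 being the exception. Col3a1 was at 470, 469 and 428 CPM in heterozygotes against 257, 235 and 246 CPM in mutants (-0.89, SE 0.11, adjusted p = 0.00445). The 2 groups were far apart and tight, and Col3a1 was the only collagen gene that kept an adjusted p under 0.05 in every alternative, leaving out any 1 library included (highest 0.0368). Col1a1, the main chain of collagen I, was at 164, 136 and 129 CPM against 84.9, 78.7 and 93.0 CPM (-0.73, SE 0.14, adjusted p = 0.0251). Its groups did not overlap either, but the call was lost with edgeR (adjusted p = 0.0515) and without any 1 of heterozygote replicates 2 and 3 and the mutant replicates, where the adjusted p was 0.0537 to 0.122.

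Col1a2, the partner of Col1a1, averaged 1227 ± 205 CPM in heterozygotes against 697 ± 157 CPM in mutants (-0.83, SE 0.21, adjusted p = 0.0811, and 4.65e-06 with the block). The ratio of Col1a2 to Col1a1 per kb was 3.19 to 5.37 in heterozygotes and 3.21 to 5.35 in mutants, the same span. Col2a1 was at 2864, 1970 and 2314 CPM against 1772, 1201 and 1280 CPM (-0.75, SE 0.21, adjusted p = 0.109, and 2.65e-05 with the block). Replicate 1 was highest in both genotypes, and the groups did not overlap. The chains of collagens V and XI, which set fibril diameter, had similar log2 fold changes: -0.69 (SE 0.28) for Col5a1, -0.85 (SE 0.30) for Col5a2, -0.78 (SE 0.42) for Col5a3, -0.67 (SE 0.29) for Col11a1 and -0.67 (SE 0.35) for Col11a2, with adjusted p of 0.215 to 0.424 without the block and each called with it. Col24a1 was at 3.48, 6.42 and 13.4 CPM against 4.01, 5.35 and 8.93 CPM (-0.20, SE 0.44, adjusted p = 0.892). Its values spread more between replicates of a genotype than between genotypes.

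Markers of mesenchyme also had lower values in the vestibular mutants. Their summed level was 344 to 604 CPM in vestibular heterozygotes and 233 to 378 CPM in mutants, so that the groups overlapped in this sum. Of 12 listed markers 9 were tested. Limma called 0 without the block (5 at an unadjusted p under 0.05, where 16.1% of all genes were) and 7 lower with it (12.8% of all genes), edgeR called 0 and DESeq2 3, and the median log2 fold change was -0.70. The cartilage markers summed to 173 to 280 CPM against 104 to 153 CPM, with 0 of 7 called (4 at an unadjusted p under 0.05) and 3 lower with the block. In the cochlea, where no collagen gene was called, mesenchymal markers were at 697 to 718 CPM against 639 to 718 CPM and 0 of 12 were called. The part of these cells in the collagen result was not tested.

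**Figure D3:**
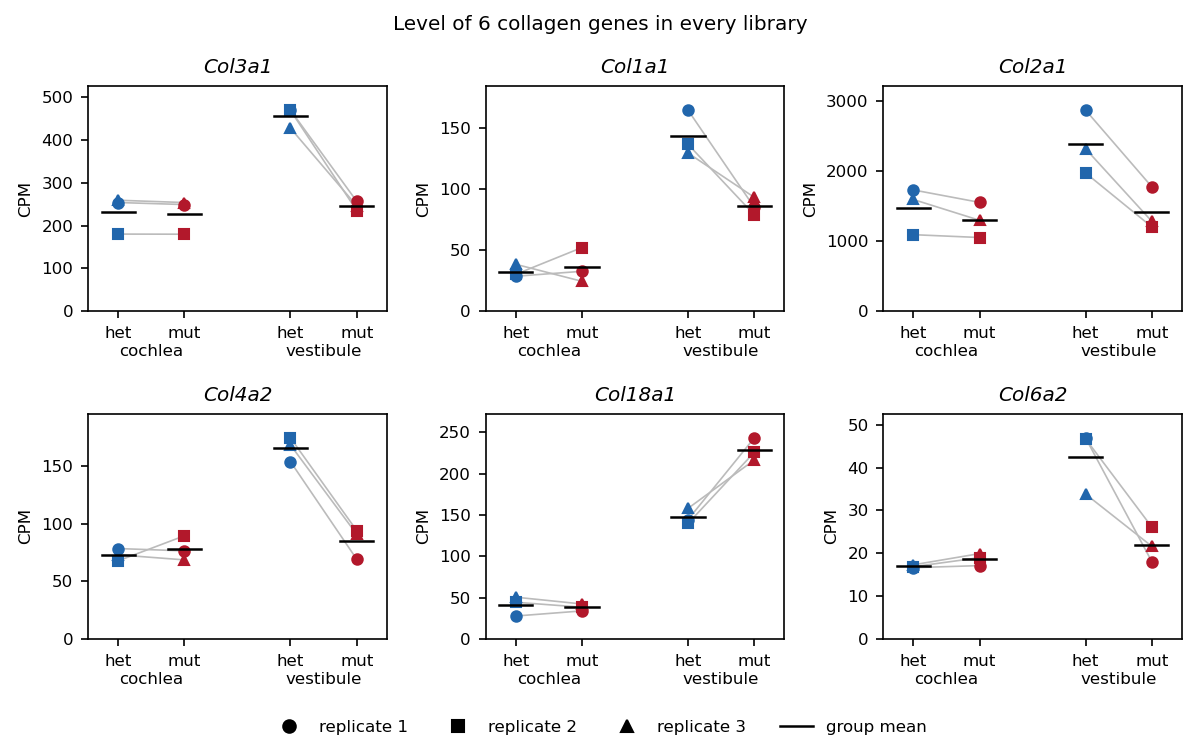
CPM (y axis from 0, its own scale for each gene) of 6 collagen genes in every library; grey lines join libraries of the same number and black bars are means of 3. Vestibular mutants lie below heterozygotes for Col3a1, Col1a1, Col2a1, Col4a2 and Col6a2 and above for Col18a1, and cochlear groups overlap for all 6; levels cannot be compared between organs, whose kits differed.

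Basement membrane collagens moved in both directions in the vestibule. Of 7 tested, 1 fell and 1 rose without the block, where 1.09% of all genes fell and 2.41% rose. With it 4 fell and 1 rose, where 12.8% and 10.5% of all genes did. The median log2 fold change was -0.51. Col4a2, a chain of the common type IV network, was at 154, 174 and 168 CPM in heterozygotes against 69.1, 93.9 and 90.7 CPM in mutants (-0.97, SE 0.15, adjusted p = 0.0106). The groups were well apart, and the call was lost without heterozygote replicate 2 only (adjusted p = 0.0679). Its head-to-head partner Col4a1 averaged 155 ± 43.1 CPM against 93.9 ± 17.2 CPM (-0.69, SE 0.23, adjusted p = 0.189, and 6.13e-05 with the block). The ratio of Col4a2 to Col4a1 per kb was 1.65, 1.07 and 1.08 in heterozygotes and 1.04, 0.979 and 1.04 in mutants. The mutant ratios all lay below the heterozygous ones, at most 1.04 against at least 1.07, a difference that was not tested. Heterozygote replicate 1 alone had a high ratio, and it was also the heterozygous library with the lowest Col4a1.

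The less common type IV chains were low. Col4a5 was called lower with the block (-0.51, SE 0.41, adjusted p = 0.616, and 0.00808 with the block). Col4a4 (-0.18, SE 0.36) and Col4a6 (0.18, SE 0.34) were not called in either fit. Col15a1 was at 11.7, 14.9 and 18.3 CPM in heterozygotes against 4.59, 7.90 and 9.17 CPM in mutants (-0.98, SE 0.28, adjusted p = 0.115, and 0.000792 with the block). All 3 mutant libraries lay below the heterozygous ones, and its fold change was the largest negative one of the type.

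Col18a1 went the other way. It was at 145, 140 and 158 CPM in heterozygotes against 243, 226 and 217 CPM in mutants (0.63, SE 0.11, adjusted p = 0.0224, and 7.59e-05 with the block). Each mutant library was above each heterozygous one. The call held with edgeR (adjusted p = 0.0217) and without both replicate 1 libraries (adjusted p = 0.0197), but was lost without any 1 of heterozygote replicates 2 and 3 and the mutant replicates, at 0.0541 to 0.135. Col15a1 and Col18a1 encode the only 2 multiplexins, collagens that carry glycosaminoglycan chains at basement membranes, and their vestibular log2 fold changes had opposite signs. Col18a1 lies on the minus strand of chromosome 10, as do Col6a1 and Col6a2, with 326009 bases between Col18a1 and Col6a1. Both of those neighbours had lower values in the vestibular mutants.

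Markers of several cell types that border basement membranes also had lower values in the vestibular mutants. Over all genes 16.1% had an unadjusted p under 0.05. Without the block 1.09% of all genes were called lower and 2.41% higher, and 12.8% were lower and 10.5% higher with the block. The pericyte list summed to 130 to 154 CPM in heterozygotes against 77.6 to 97.6 CPM in mutants, with 0 of 7 called (all 7 at an unadjusted p under 0.05) and 5 lower with the block. The endothelial list summed to 118 to 180 CPM against 68.2 to 114 CPM, with 0 of 10 called (4 at an unadjusted p under 0.05) and 6 lower with the block. The Schwann and satellite glia list summed to 384 to 443 CPM against 242 to 272 CPM, with 1 of 9 called lower and 6 lower with the block. The hair cell list summed to 9951 to 11057 CPM against 11010 to 11679 CPM, with 1 of 12 called higher, Pvalb (1.56, SE 0.13, adjusted p = 0.000732), and 5 higher with the block. Supporting cell markers overlapped between genotypes in their sum, at 517 to 673 CPM and 595 to 638 CPM. Of these 10 markers 0 were called, and 3 were lower and 2 higher with the block. Macrophage markers overlapped too in their sum, at 7407 to 9264 CPM and 7035 to 8238 CPM, with 0 of 12 called and 4 lower with the block. Neuronal markers were higher in their sum, at 1408 to 1645 CPM against 2335 to 2424 CPM. Of 6 tested 3 were called higher, and 3 were higher and 1 lower with the block. Bone markers overlapped at 36.0 to 61.8 CPM and 35.9 to 38.7 CPM, with 1 of 6 lower with the block. Melanocyte markers were at 30.4 to 36.9 CPM and 17.8 to 27.4 CPM, with 2 of 5 lower with the block. No marker list had a gene at 0 in all 6 libraries, and the part of any of these cells in the basement membrane values was not tested.

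**Figure D4:**
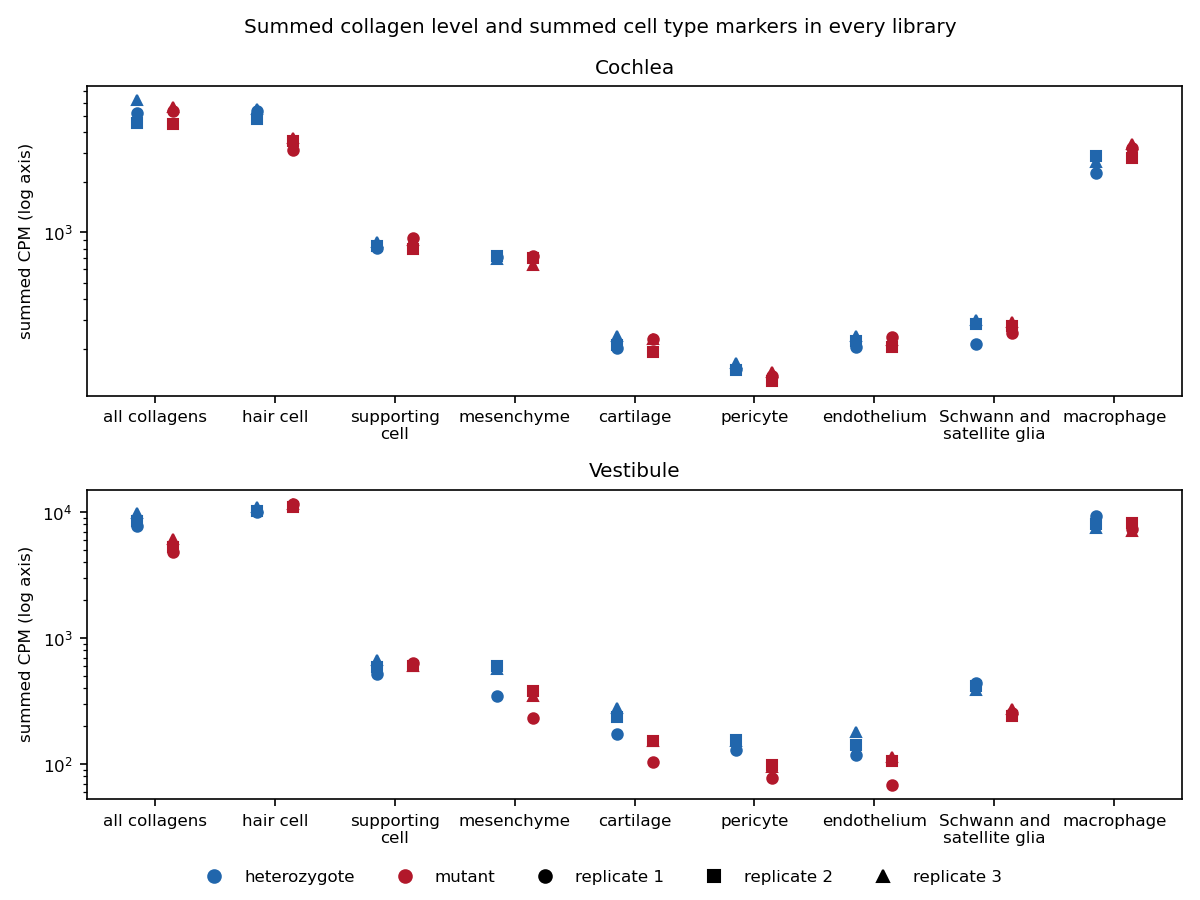
Summed CPM (y axis, log scale) of all 44 collagen genes and of 8 cell type marker lists in every library, cochlea above and vestibule below. In the vestibule the collagen sum and the pericyte, cartilage, endothelial and Schwann cell sums of the mutants lie below those of the heterozygotes, whereas in the cochlea the collagen sums overlap and the hair cell sums are lower in mutants.

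Of the 21 other collagens tested in the vestibule, 1 fell without the block, where 1.09% of all genes did. With it 12 fell and 1 rose, where 12.8% and 10.5% of all genes did. The median log2 fold change was -0.65. Col6a2, a chain of the collagen VI beaded filaments that surround many cells, was at 46.9, 46.7 and 33.8 CPM in heterozygotes against 18.0, 26.1 and 21.6 CPM in mutants (-0.92, SE 0.20, adjusted p = 0.0457, and 0.000269 with the block). The groups did not overlap, but this was the least stable of the 5 calls: it was lost with edgeR (0.0582), median-of-ratios scaling (0.0553), no filter (0.0903), without both replicate 1 libraries (0.0809) and without any 1 library other than heterozygote replicate 3 (up to 0.204). Its partners Col6a1 (-0.70, SE 0.20, adjusted p = 0.121) and Col6a3 (-0.82, SE 0.40, adjusted p = 0.370) passed with the block only. Col6a6 (-0.37, SE 0.38) passed in neither fit.

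Collagens of the FACIT family sit on the surface of fibrils. All 8 tested members had negative vestibular log2 fold changes, with a median of -0.62. By limma without the block 0 were called, though 5 had an unadjusted p under 0.05 (16.1% of all genes). EdgeR called 0 and DESeq2 1 (3.36% and 7.91% of all genes). The blocked fit called 6 lower, where 12.8% of all genes were. Col9a2 was at 342, 446 and 583 CPM in heterozygotes against 263, 317 and 379 CPM in mutants (-0.50, SE 0.21, adjusted p = 0.307, and 0.000347 with the block). Col9a3 was at 292, 402 and 701 CPM against 191, 225 and 371 CPM (-0.79, SE 0.34, adjusted p = 0.310, and 7.81e-06 with the block). In both genes the replicate 3 library was the highest and the replicate 1 library the lowest of each genotype, and the groups overlapped. Col16a1 had the largest negative log2 fold change of all vestibular collagen genes, at 84.1 ± 27.2 against 41.9 ± 19.0 CPM (-1.03, SE 0.32, adjusted p = 0.153, and 5.18e-06 with the block). Col12a1 and Col14a1, found in dense connective tissue, were called lower with the block only, and Col20a1 and Col22a1 in neither fit.

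In the remaining families, Col7a1 was at 8.44, 17.2 and 26.2 CPM against 8.13, 11.6 and 14.9 CPM in the vestibule (-0.45, SE 0.39, adjusted p = 0.645, and 0.0718 with the block). The genotypes overlapped, and replicate 1 was low in both. Col8a1 (-0.81, SE 0.23) and Col8a2 (-0.67, SE 0.19), chains of a short-chain network collagen of endothelium, were called lower with the block only. Of 3 transmembrane collagens tested, Col25a1 was at 17.9 ± 7.20 CPM in heterozygotes against 24.5 ± 6.46 CPM in mutants (0.47, SE 0.31, adjusted p = 0.529, and 0.0264 with the block). Col13a1 (0.08, SE 0.38) and Col23a1 (-0.33, SE 0.28) were called in neither fit.

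The 8 collagen genes of tectorial membrane fibrils (Col2a1, Col5a1, Col5a2, the 3 type IX genes and the 2 type XI genes) were also counted as 1 list. In the vestibule 0 were called by limma without the block, where 3.50% of all genes were, and 7 had an unadjusted p under 0.05 (16.1% of all genes). EdgeR called 0 of the 8 and DESeq2 1, against 3.36% and 7.91% of all genes. All 8 were lower with the block, where 12.8% of all genes were, and their median log2 fold change was -0.68. Their sum was 4670 to 6221 CPM in heterozygotes against 2879 to 3696 CPM in mutants, with no overlap. In the cochlea 0 were called in either fit, where 4.41% of all genes were without the block and 8.52% with it. The cochlear median was 0.02, and the sum was 2697 to 3838 CPM against 2637 to 3360 CPM. The cochlear minus the vestibular log2 fold change passed the test for 0 of the 8 without the block (adjusted p = 0.207 to 0.560) and for all 8 with it (0.000284 to 0.0198). Over all genes 3.14% passed without the block and 13.3% with it, 6.9% with a positive difference.

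The difference between organs was tested as the cochlear log2 fold change minus the vestibular one, over the 39 collagen genes among 14674 genes tested in both organs. It passed for Col4a2, at 1.06 (SE 0.20, adjusted p = 0.00821), and for Col6a2, at 1.05 (SE 0.25, adjusted p = 0.0308), where 3.14% of all genes passed and 0.709% with a positive difference. In both genes the cochlear groups overlapped and the vestibular mutants were lower. The Col4a2 call held when any 1 of the 12 libraries was left out (adjusted p at most 0.0306). The Col6a2 call was lost in 10 of these 12 fits (up to 0.103). With the block 25 collagen genes passed, 24 with a positive difference, against 13.3% of all genes and 6.9% with a positive difference.

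The difference was 0.87 for Col3a1 (SE 0.23, adjusted p = 0.0602, and 6.59e-05 with the block) and 0.84 for Col1a1 (SE 0.30, adjusted p = 0.208, and 0.0384 with the block). For Col18a1 it was negative, at -0.69 (SE 0.25, adjusted p = 0.220, and 0.00712 with the block). Over the 39 genes 35 differences were positive, with a median of 0.65. The median over all 14674 genes was 0.11, itself above 0, and the share of positive differences over all genes was not counted. A kit that shifts a gene by the same factor in all libraries drops out of these differences, but a kit that stretches or shrinks fold changes cannot be told apart from the organ.

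Genes that make and handle collagen were counted in the same way. Among 25 tested synthesis genes in the vestibule, which modify, fold and export collagen chains, 2 rose and 2 fell, where 2.41% of all genes rose and 1.09% fell. With the block 2 rose and 10 fell, where 10.5% and 12.8% of all genes did. These shares apply to the other lists of matrix genes too. Their median log2 fold change was -0.25. Serpinh1, the collagen chaperone HSP47, fell from 139 ± 9.97 to 86.1 ± 14.0 CPM (-0.69, SE 0.14, adjusted p = 0.0416). Creb3l1, a transcription factor of collagen secretion, fell from 20.0 ± 2.67 to 9.17 ± 0.963 CPM (-1.04, SE 0.18, adjusted p = 0.0197). Fkbp14, a prolyl isomerase of the endoplasmic reticulum, rose from 13.7 ± 3.44 to 31.0 ± 3.34 CPM (1.15, SE 0.22, adjusted p = 0.0259). Colgalt2, which adds galactose to hydroxylysine, rose from 74.0 ± 17.8 to 144 ± 11.4 CPM (0.98, SE 0.18, adjusted p = 0.0240). All 4 had mutant libraries wholly on 1 side of the heterozygous ones, where 11.6% of all genes had them below and 10.7% above. Since the 4 were picked by their adjusted p, this separation adds no support.

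Among 12 vestibular genes of trimming and crosslinking, 1 fell without the block, and 2 rose and 4 fell with it. Pcolce, an enhancer of procollagen trimming, fell from 28.1 ± 0.977 to 15.6 ± 0.479 CPM (-0.81, SE 0.15, adjusted p = 0.0215). Of 9 receptor genes 1 rose and 1 fell without the block, and 1 rose and 4 fell with it, with a median log2 fold change of -0.30. Ddr1, a receptor tyrosine kinase of epithelia that binds collagen, rose from 112 ± 17.5 to 216 ± 46.3 CPM (0.93, SE 0.18, adjusted p = 0.0312). Mrc2, an endocytic collagen receptor of mesenchymal cells, fell from 66.0 ± 6.36 to 34.5 ± 6.22 CPM (-0.93, SE 0.17, adjusted p = 0.0234). The receptors thus included called members in opposite directions.

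Of 11 degradation genes only Mmp2, a gelatinase, was called, from 89.1 ± 3.70 to 55.4 ± 3.16 CPM (-0.68, SE 0.12, adjusted p = 0.0185), and 5 were lower with the block. Of 14 laminins and other basement membrane genes limma called 0 (4 at an unadjusted p under 0.05, where 16.1% of all genes were), edgeR 0 and DESeq2 1. With the block 9 were lower, and the median was -0.40. Hspg2, the perlecan gene, had the smallest p, at 167 ± 14.6 against 97.7 ± 26.6 CPM (-0.80, SE 0.19, adjusted p = 0.0657). Of 17 fibril-associated matrix genes limma called 0 (9 at an unadjusted p under 0.05), edgeR 0 and DESeq2 3. With the block 12 were lower and 1 higher, and the median was -0.58. The higher one was Tnc, tenascin C, at 1158 ± 310 against 2191 ± 433 CPM (0.94, SE 0.24, adjusted p = 0.0889, and 5.34e-06 with the block).

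In the cochlea limma called 0 genes of these 6 lists without the block, where 4.41% of all genes passed. An unadjusted p under 0.05 was found for 8 of them and for 12.1% of all genes. EdgeR called 0 (4.52% of all genes) and DESeq2 2 (5.31%). With the block 2 of 13 trimming and crosslinking genes and 1 of 9 receptor genes were higher. In the same fit 1 of 14 laminins and other basement membrane genes and 1 of 17 fibril-associated genes were lower. Of 25 synthesis genes and 12 degradation genes 0 were called with it, where 8.52% of all genes passed in either direction. Ddr1 was at 18.4 ± 3.50 against 30.6 ± 4.62 CPM (0.71, SE 0.19, adjusted p = 0.0520, and 0.00316 with the block), the same sign as in the vestibule. Tnc was at 1773 ± 391 against 1154 ± 237 CPM (-0.62, SE 0.20, adjusted p = 0.125, and 0.000154 with the block), the opposite sign to the vestibule. Hair cell markers were lower in the same cochlear mutants, at 4757 to 5469 CPM against 3131 to 3686 CPM. Of 12 markers 9 were called lower, where 4.41% of all genes were called in either direction.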

How the data were processed

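RNA bound to HA-tagged ribosomes was sequenced in 12 libraries, 3 per genotype and organ. The deposited values are CPM made by the authors, 1 table per library, per the file headers. TopHat and GRCm38 are named in the submitters' processing notes; the counting tool, strand setting and annotation are not given in the sources used here. All values (100%) were whole multiples of 1 read, to within 1e-06, so read counts were recovered from the deposited CPM for edgeR 4.0.16 and DESeq2 1.42.0, used as alternatives.

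A gene was tested in an organ if 3 or more of its 6 libraries had 1 CPM or more, using limma 3.58.1 (trend, R 4.3.3) on log2(CPM + 1) within each organ, with Benjamini-Hochberg adjustment over all tested genes and calls at an adjusted p under 0.05. This scale understates changes of low genes. Organs were compared by an interaction term over the 12 libraries. The script was tested on simulated data.

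Replicate numbers come from the labels. Deviations from the group means correlated between same-numbered libraries at 0.226, 0.226 and 0.420 in the cochlea and 0.766, 0.508 and 0.599 in the vestibule, and every library correlated best with its own number, so the number was taken to pair the libraries. Fits with it as a block are given where they change a call. No source used here says what the number stands for.

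Alternatives were pseudocounts of 0.25 and 4, a filter of 5 CPM or none, median-of-ratios scaling, the block, edgeR, DESeq2, leaving out each library, and leaving out both cochlear replicate 3 or both vestibular replicate 1 libraries. Exon lengths and neighbours came from GENCODE M21, promoters from RefSeq on GRCm38.p6. Members, gene lists and tests were chosen with earlier results of these data known. Given with a value in every library are members called in either organ or in the difference, and per type and organ the member with the highest level per exon kb and the one with the smallest p. Matrix genes named are called members and those with the smallest p of a list. Other members are given by group mean or log2 fold change. The values of 1 marker gene are not reported here. Figures were drawn with matplotlib 3.10.9.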

Additional observations from a re-analysis of the deposited data

Results flagged for a closer look

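Col4a2 differed between organs in its response to genotype: the cochlear minus the vestibular log2 fold change was 1.06 (SE 0.20, adjusted p = 0.00821 by limma). Its cochlear mutants were at 76.4, 89.4 and 68.6 CPM and its vestibular ones at 69.1, 93.9 and 90.7 CPM, against 67.7 to 78.4 and 154 to 174 CPM in heterozygotes. Col6a2 differed likewise, by 1.05 (SE 0.25, adjusted p = 0.0308), with a call that did not hold when any 1 of 10 of the 12 libraries was left out. Organ and kit cannot be told apart in either value.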

How the results depend on the processing

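The vestibular count of 5 called collagen genes became 28 with the replicate block, 14 without both replicate 1 libraries, 13 with DESeq2 and 3 with edgeR, and 1 to 7 without single libraries. In the difference between organs, 2 became 25 with the block and 1 to 2 without single libraries. The cochlear count was 0 in all 16 settings. The called basement membrane genes of the vestibule were 2, and 1 for type IV alone. Over all genes, calls went from 794 to 1532 with the block in the cochlea (546 to 801 without single libraries). In the vestibule they went from 546 to 3634 with the block, 1234 with DESeq2, 358 without a filter, 863 without both replicate 1 libraries and 226 to 522 without single libraries. In the difference they went from 461 to 1955 with the block and 302 to 453 without single libraries. The cause of these shifts was not tested.

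Signs turned only for small fold changes. In the cochlea, Col18a1 was 0.038 without both replicate 3 libraries, Col9a2 was -0.015 with DESeq2, -0.023 with edgeR and -0.0025 with median-of-ratios scaling, and Col9a3 was -0.079, -0.086 and -0.024. Without single libraries the cochlear ranges were -0.31 to 0.11 for Col18a1, -0.18 to 0.35 for Col1a1, -0.19 to 0.14 for Col3a1, -0.010 to 0.18 for Col4a2, -0.16 to 0.30 for Col9a2 and -0.19 to 0.39 for Col9a3. They were -0.60 to 0.24 for vestibular Col24a1 and -0.52 to 0.24 for the difference of Col7a1. Of the values of single named genes under alternatives, 435 kept direction and side of the threshold, 15 newly passed it, 31 lost it and 25 changed sign. Depth limits the lowest genes, since each read of the cochlear libraries stood for 0.107 to 0.133 CPM.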
